A study of Homo sapiens with 6 samples.

Results

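The complement genes C1R, C1S, C3, CFB, CFI, SERPING1, CD46, CD55 and CD59 were followed by RNA sequencing through 6 libraries of 3 human thyroid cancer cell lines. They are 9 of the 58884 gene identifiers measured, matched by Ensembl identifier, and they were chosen by function, as proteases and regulators of complement, and by their FPKM levels and their differences between the libraries of each line, which were already known. Those values are therefore a description, with no test. BHT-101 and 8505C are established lines of anaplastic thyroid carcinoma, and FTC-133 is an established line of follicular thyroid carcinoma. BHT-101 and FTC-133 cells carried siRNA directed at CRABP2 (siCRABP2) or siRNA serving as control (siControl). The 8505C cells carried the CRABP2 vector, for overexpression, or an empty one (empty vector). Every condition was 1 library of total RNA, and the differences below have no replicate check. Clonal selection of the 8505C cells is not described in the labels. In cultures measured in bulk, fewer cells of a type and less RNA per cell cannot be told apart.

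Complement is a cascade of blood and tissue proteins that coat targets, call in leukocytes and can open pores in membranes. In its classical arm the protease C1r activates the protease C1s, which cuts C4 and C2; in its alternative arm factor B pairs with C3b, and all arms meet at C3. Host cells restrain the cascade with soluble inhibitors and with membrane proteins that break up or block its enzymes. Most circulating components come from the liver, but epithelial cells and fibroblasts make several of them, and inflammatory cytokines are known inducers of C3, CFB, C1R and C1S.

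The bases just before the transcript starts are shown for C1R and CD55, which differed at least 2-fold on the log2(FPKM + 1) scale in a line, and for CFB, added after its window was seen to hold the most kinds of motif. The RefSeq promoter table (GRCh38.p14) was matched for C1R, CD46, CD55, CD59, CFB and CFI, and not for C1S, C3 and SERPING1. Each window is the 250 bases before a start, 5′ to 3′ on the gene's strand, and capitals mark a match on either strand to 1 of 6 motifs. The C1R window with the outer start lies at chr12:7092446-7092695, minus strand, and that of the inner start at chr12:7091894-7092143, minus strand. The CD55 window lies at chr1:207321428-207321677, plus strand, and the CFB window at chr6:31945845-31946094, plus strand.
C1R outer start: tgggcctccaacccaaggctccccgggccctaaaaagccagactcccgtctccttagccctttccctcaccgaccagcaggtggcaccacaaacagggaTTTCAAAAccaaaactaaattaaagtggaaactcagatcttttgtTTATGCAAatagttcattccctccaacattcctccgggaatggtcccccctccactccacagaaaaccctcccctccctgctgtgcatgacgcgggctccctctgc
C1R inner start: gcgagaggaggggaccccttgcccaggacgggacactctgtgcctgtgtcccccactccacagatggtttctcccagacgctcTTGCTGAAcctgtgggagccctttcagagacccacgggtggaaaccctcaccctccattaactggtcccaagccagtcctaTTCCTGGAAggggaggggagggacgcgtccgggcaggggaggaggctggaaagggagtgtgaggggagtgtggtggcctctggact
CD55: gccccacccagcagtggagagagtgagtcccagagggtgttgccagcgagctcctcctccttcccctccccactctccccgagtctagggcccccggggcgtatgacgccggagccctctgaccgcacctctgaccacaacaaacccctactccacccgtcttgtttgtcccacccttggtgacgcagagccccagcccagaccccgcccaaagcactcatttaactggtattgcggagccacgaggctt
CFB: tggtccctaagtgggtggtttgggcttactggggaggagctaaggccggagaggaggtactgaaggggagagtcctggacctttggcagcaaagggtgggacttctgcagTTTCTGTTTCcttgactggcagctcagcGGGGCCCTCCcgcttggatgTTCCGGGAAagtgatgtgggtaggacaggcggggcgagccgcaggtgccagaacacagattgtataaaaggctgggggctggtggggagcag

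The motifs searched were the interferon-gamma GAS element (TTCNNNGAA), the interferon-response core (a pair of GAAA blocks with 2 bases of any kind between), a C/EBP pattern (TTNNGNAA), the NF-kB consensus, and the retinoic acid response elements DR5 and DR2. Over all 35116 windows of this length in the table, 6.57% held the GAS element, 3.02% the interferon-response core, 33.2% the C/EBP pattern and 9.96% the NF-kB consensus. DR5 was in 0.074% and DR2 in 0.0313%. The CFB window held the interferon-response core at 140 to 131 bases before the start, the NF-kB consensus at 112 to 103 and the GAS element at 92 to 84. The outer C1R window held the C/EBP pattern at 151 to 144 and at 106 to 99 bases before the start. In the inner C1R window, the C/EBP pattern lay at 167 to 160 and the GAS element at 86 to 78. The CD55 window held none of the 6, and no window of the matched genes held DR5 or DR2. Among windows not shown, the GAS element lay in overlapping CD59 windows, at 184 to 176 and 128 to 120 bases before their starts. The C/EBP pattern lay in another CD59 window at 191 to 184 and 53 to 46, and in the CFI window at 72 to 65 and 38 to 31. The CD46 windows held none. No motif matches overlapped within these windows, and a match is only a description of the letters.

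Levels are in FPKM, reads scaled to exon length and library total, which compares genes per length. Totals per library, recovered from these values, lay between 22084110 and 27958622 reads. CRABP2, which carries retinoic acid to its nuclear receptors, was 11.4 FPKM with siCRABP2 and 27.3 FPKM with siControl in BHT-101. It was 0.17 FPKM with siCRABP2 and 8.94 FPKM with siControl in FTC-133, and 38.0 FPKM with the CRABP2 vector and 0.607 FPKM with the empty vector in 8505C. CRABP2 thus followed the labels in each line. Of 8 thyroid markers, 3 reached 1 FPKM in FTC-133, 2 in 8505C and 1 in BHT-101. The thyroglobulin gene TG was at most 0.0472 FPKM in any library, while the transcription factor gene HHEX was 1.45 to 7.57 FPKM throughout. The transcription factor gene PAX8 was 13.0 FPKM with siCRABP2 and 12.3 FPKM with siControl in FTC-133 and at most 0.273 FPKM in the other lines, and NKX2-1 was 12.4 to 22.6 FPKM across the FTC-133 and 8505C libraries and listed at 0 in both of BHT-101. The leukocyte antigen gene PTPRC was at most 0.0241 FPKM in every library, and the hepatocyte product ALB at most 0.157 FPKM. Summed over 9 leukocyte markers the level was 13.0 FPKM with the CRABP2 vector and 16.5 FPKM with the empty vector in 8505C, nearly all of it CD14, and at most 3.35 FPKM in the other lines. Summed over 6 hepatocyte markers it was 19.4 FPKM with siCRABP2 and 21.7 FPKM with siControl in BHT-101, mostly SERPINA1, and at most 2.04 FPKM in the other lines. Summed over 5 fibroblast markers it was 76.6 FPKM with siCRABP2 and 82.1 FPKM with siControl in BHT-101, 143 FPKM with siCRABP2 and 161 FPKM with siControl in FTC-133, and at most 0.998 FPKM in 8505C. Nearly all of the BHT-101 fibroblast sum was LUM, and most of the FTC-133 one was COL1A2. The leukocyte, hepatocyte and fibroblast sums were lower with siCRABP2 in both knockdown lines and lower with the CRABP2 vector in 8505C. Not every marker followed its sum: FGB in BHT-101 and COL1A2 in FTC-133 were higher with siCRABP2. The sum over 6 epithelial markers was higher, at 819 FPKM with siCRABP2 and 786 FPKM with siControl in BHT-101, 110 FPKM with siCRABP2 and 98.6 FPKM with siControl in FTC-133, and 343 FPKM with the CRABP2 vector and 205 FPKM with the empty vector in 8505C. Against that sum, KRT7 and EPCAM were lower with siCRABP2 in BHT-101, and KRT8 and KRT19 in FTC-133. EPCAM was also lower with the CRABP2 vector in 8505C. The sum over 4 mesenchymal markers was 214 FPKM with siCRABP2 and 242 FPKM with siControl in BHT-101, 969 FPKM with siCRABP2 and 1039 FPKM with siControl in FTC-133, and 298 FPKM with the CRABP2 vector and 225 FPKM with the empty vector in 8505C. Against the mesenchymal sum, CDH2 and ZEB1 were higher with siCRABP2 in BHT-101, and VIM and ZEB1 in FTC-133. The sum over 4 endothelial markers was at most 3.24 FPKM. The part of these markers in the complement differences was not tested.

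C1R and C1S, the paired proteases of the classical arm, were the complement genes with the largest difference in BHT-101. C1R was 75.1 FPKM (9859 reads) with siCRABP2 and 32.2 FPKM (5291 reads) with siControl in BHT-101. FTC-133 had 3.45 FPKM (551 reads) with siCRABP2 and 1.63 FPKM (237 reads) with siControl. 8505C had 4.69 FPKM (609 reads) with the CRABP2 vector and 11.8 FPKM (1585 reads) with the empty vector. In each line the library with less CRABP2 was the one with more C1R. The FPKM ratio for C1R was 2.33 in BHT-101, with a 95% exact (Clopper-Pearson) counting interval of 2.26 to 2.41, and 2.12 (1.82 to 2.48) in FTC-133, siCRABP2 over siControl. It was 0.398 (0.361 to 0.437) in 8505C, CRABP2 vector over empty vector. Such intervals cover counting error only, compare libraries and not conditions, and treat reads without molecular tags as independent.

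C1S did not repeat this in all lines. It was 65.4 FPKM (9443 reads) with siCRABP2 and 28.6 FPKM (5173 reads) with siControl in BHT-101, and 3.08 FPKM (440 reads) with the CRABP2 vector and 7.71 FPKM (1138 reads) with the empty vector in 8505C. FTC-133 had 2.48 FPKM (436 reads) with siCRABP2 and 2.23 FPKM (357 reads) with siControl. The FPKM ratio was 2.28 (2.21 to 2.36) in BHT-101 and 0.40 (0.358 to 0.447) in 8505C, close to those of C1R, while in FTC-133 it was 1.12 with an interval, 0.967 to 1.29, that holds 1. The level of C1R over that of C1S was accordingly 1.39 with siCRABP2 and 0.73 with siControl in FTC-133, but 1.15 and 1.125 in BHT-101 and 1.52 and 1.53 in 8505C, in each case the siCRABP2 or CRABP2 vector library first.

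The C1R and C1S genes are neighbours on chromosome 12. In GENCODE release 29 (GRCh38), C1S (ENSG00000182326) lies at chr12:6988259-7071032 on the plus strand and C1R (ENSG00000159403) at chr12:7080199-7092607 on the minus strand, so their 3′ ends face each other across 9166 bases with no annotated gene between them. The C1R region overlaps that of C1RL, on the same strand, and the C1S region overlaps LPCAT3 and EMG1. Strand use in the counting is unknown here, and reads in such overlaps are uncertain.

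**Figure D1:**
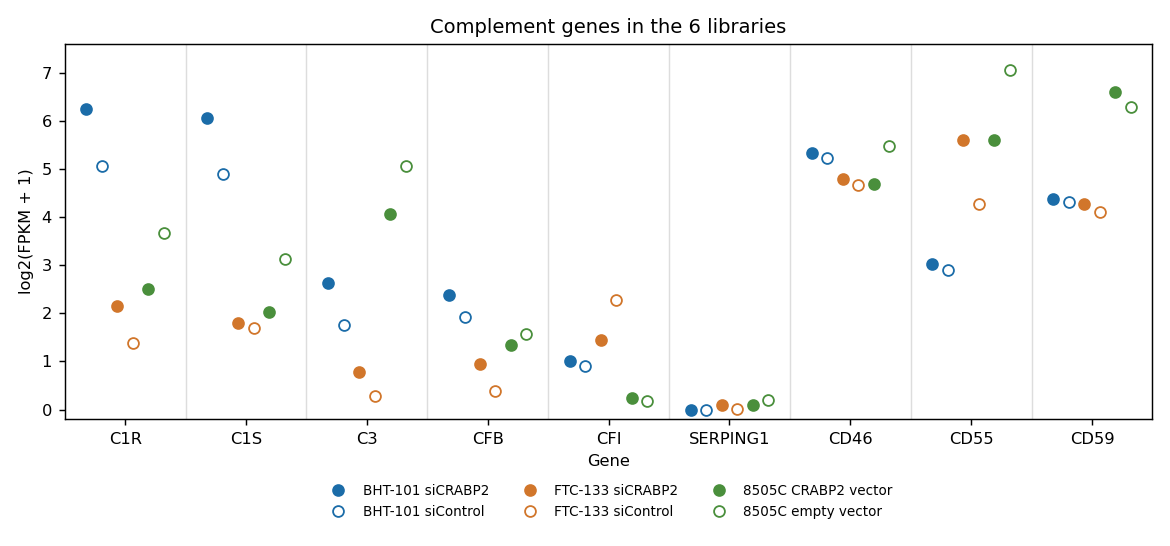
Level of the 9 complement genes in each library, as log2(FPKM + 1). Each point is 1 library, filled for siCRABP2 or the CRABP2 vector and open for siControl or the empty vector; C1R and C1S are highest in BHT-101, C3, CD55 and CD59 in 8505C, and SERPING1 lies near 0 throughout.

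C3, the central component that all arms cleave, was mainly an 8505C transcript. It was 15.7 FPKM (2889 reads) with the CRABP2 vector and 32.2 FPKM (6134 reads) with the empty vector. In BHT-101 it was 5.16 FPKM (960 reads) with siCRABP2 and 2.37 FPKM (552 reads) with siControl, and in FTC-133 0.707 FPKM (160 reads) with siCRABP2 and 0.218 FPKM (45 reads) with siControl. The C3 level thus spanned 148-fold between the highest and the lowest library. Its FPKM ratio was 2.18 (1.96 to 2.42) in BHT-101, 3.25 (2.32 to 4.63) in FTC-133 and 0.487 (0.466 to 0.509) in 8505C. The FTC-133 ratio comes from levels under 1 FPKM.

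CFB encodes factor B, the protease of the alternative arm. It was 4.19 FPKM with siCRABP2 and 2.82 FPKM with siControl in BHT-101, 0.927 FPKM with siCRABP2 and 0.306 FPKM with siControl in FTC-133, and 1.52 FPKM with the CRABP2 vector and 1.96 FPKM with the empty vector in 8505C. The reads behind these were 468 and 394, 126 and 38, and 168 and 224, in the same order. The FPKM ratio was 1.49 (1.30 to 1.70) in BHT-101, 3.03 (2.09 to 4.47) in FTC-133 and 0.776 (0.631 to 0.952) in 8505C, so the direction was that of C3 in each line and the 8505C difference was smaller. CFB lies next to C2 on chromosome 6 and overlaps it in the annotation, as does the protein-coding gene AL645922.1, so its reads are uncertain. CFB (ENSG00000243649) spans chr6:31945650-31952084 on the plus strand, and C3 (ENSG00000125730) spans chr19:6677704-6730562 on the minus strand, where it overlaps GPR108.

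CFI encodes factor I, the protease that inactivates C3b and C4b with the help of cofactors. FTC-133 held the most of it, with 1.73 FPKM (229 reads) with siCRABP2 and 3.84 FPKM (465 reads) with siControl. In BHT-101 it was 1.01 FPKM (110 reads) with siCRABP2 and 0.866 FPKM (118 reads) with siControl, and in 8505C 0.176 FPKM (19 reads) with the CRABP2 vector and 0.135 FPKM (15 reads) with the empty vector. CFI was the only one of the 9 genes lower with siCRABP2 in FTC-133, at an FPKM ratio of 0.45 (0.382 to 0.528). The counting interval held 1 in BHT-101 (0.891 to 1.53) and in 8505C (0.631 to 2.77). CFI (ENSG00000205403) spans chr4:109740694-109802179 on the minus strand and overlaps the gene AC126283.2.

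SERPING1 encodes the C1 inhibitor, the plasma serpin that inactivates C1r and C1s. It was listed at 0 in both BHT-101 libraries, where 3 reads would correspond to 0.0373 FPKM with siCRABP2 and 0.0298 FPKM with siControl. It was 0.0715 FPKM (7 reads) with siCRABP2 and 0.0112 FPKM (1 read) with siControl in FTC-133, and 0.0754 FPKM (6 reads) with the CRABP2 vector and 0.146 FPKM (12 reads) with the empty vector in 8505C. It was the only one of the 9 genes under 1 FPKM in every library, and its counting intervals held 1 in FTC-133 and in 8505C. SERPING1 (ENSG00000149131) spans chr11:57597387-57614853 on the plus strand and overlaps no annotated gene. BHT-101, the line with the highest C1R and C1S levels, had no SERPING1 read. The FTC-133 siControl library, with 1 read, can hardly be told from it, and FTC-133 had the lowest C1R and C1S levels.

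The membrane regulators CD46, CD55 and CD59 were above 6 FPKM in all 6 libraries. CD55, or decay-accelerating factor, speeds the breakup of the enzymes that cleave C3. It was 47.6 FPKM (7643 reads) with siCRABP2 and 18.3 FPKM (2677 reads) with siControl in FTC-133, and 47.3 FPKM (6177 reads) with the CRABP2 vector and 132 FPKM (17792 reads) with the empty vector in 8505C. In BHT-101 it was 7.17 FPKM (947 reads) with siCRABP2 and 6.47 FPKM (1068 reads) with siControl. The FPKM ratio was 2.61 (2.49 to 2.73) in FTC-133, 0.359 (0.349 to 0.37) in 8505C and 1.11 (1.02 to 1.21) in BHT-101. CD55 thus differed at least 2-fold in FTC-133 and 8505C and by little in BHT-101, the line with the highest C1R and C1S levels.

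CD46, the membrane cofactor that lets factor I cut C3b and C4b, varied least among the genes with reads in every library, by 1.78-fold between the highest and the lowest library. It was 39.2 FPKM with siCRABP2 and 36.8 FPKM with siControl in BHT-101, 26.6 FPKM with siCRABP2 and 24.4 FPKM with siControl in FTC-133, and 25.0 FPKM with the CRABP2 vector and 43.4 FPKM with the empty vector in 8505C. The FPKM ratio was 1.07 (1.03 to 1.10) and 1.09 (1.05 to 1.13) in BHT-101 and FTC-133, and 0.575 (0.555 to 0.596) in 8505C. CD46 and CD55 lie on chromosome 1 in a cluster of complement regulators, 365252 bases apart, with CR2, CR1 and CR1L between them. CD55 (ENSG00000196352) spans chr1:207321376-207386804 and CD46 (ENSG00000117335) spans chr1:207752057-207795513, both on the plus strand.

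CD59, which blocks the final pore-forming complex, ran differently in 8505C. Its level was 95.8 FPKM (22361 reads) with the CRABP2 vector and 76.9 FPKM (18575 reads) with the empty vector, an FPKM ratio of 1.25 (1.22 to 1.27), the only one of the 9 genes with more than 1 FPKM that was higher with the vector. In BHT-101 it was 19.8 FPKM with siCRABP2 and 18.8 FPKM with siControl, and in FTC-133 18.4 FPKM with siCRABP2 and 16.2 FPKM with siControl. Those ratios were 1.05 (1.01 to 1.09) and 1.13 (1.09 to 1.18). CD59 (ENSG00000085063) spans chr11:33703010-33736491 on the minus strand and overlaps the gene AL049629.2.

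**Figure D2:**
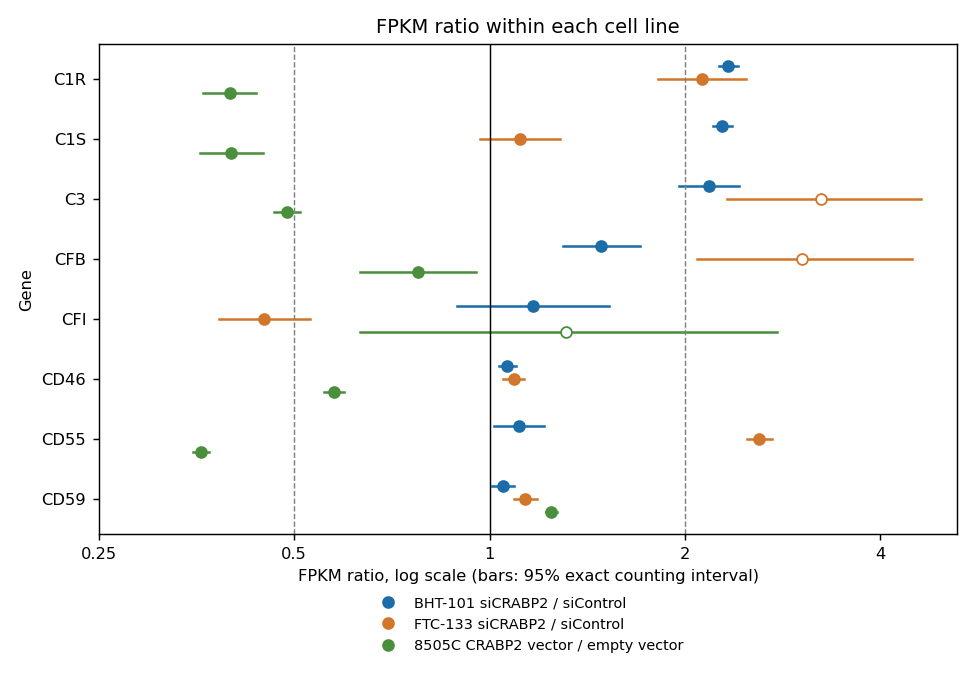
FPKM ratio of each gene within each line on a log axis, siCRABP2 over siControl or CRABP2 vector over empty vector, with 95% exact counting intervals as bars. Open points mark lines where both libraries were under 1 FPKM, and dashed lines mark ratios of 0.5 and 2; C1R lies beyond 2 in both knockdown lines and below 0.5 in 8505C, whereas CD59 lies above 1 in all 3 lines. SERPING1 is left out.

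Summed over CD46, CD55 and CD59, the level was 66.1 FPKM with siCRABP2 and 62.1 FPKM with siControl in BHT-101, 92.6 FPKM with siCRABP2 and 58.9 FPKM with siControl in FTC-133, and 168 FPKM with the CRABP2 vector and 252 FPKM with the empty vector in 8505C. The makeup differed by line. CD46 held 59.2% of the sum with siCRABP2 and 59.3% with siControl in BHT-101. In FTC-133 CD55 held 51.4% with siCRABP2 and 31.0% with siControl. In 8505C CD55 held 28.2% with the CRABP2 vector and 52.3% with the empty vector, and CD59 held 57.0% and 30.5% in the same order. BHT-101 differed from the other lines in the level of components against regulators. The sum over C1R, C1S, C3 and CFB there was 150 FPKM with siCRABP2 and 66.0 FPKM with siControl, which is 2.27 and 1.06 times the regulator sum. That quotient was 0.0817 with siCRABP2 and 0.0743 with siControl in FTC-133, and 0.149 with the CRABP2 vector and 0.213 with the empty vector in 8505C. C1R and C1S made up 93.8% and 92.1% of the component sum in BHT-101, whereas C3 made up 62.8% and 60.0% of it in 8505C.

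**Figure D3:**
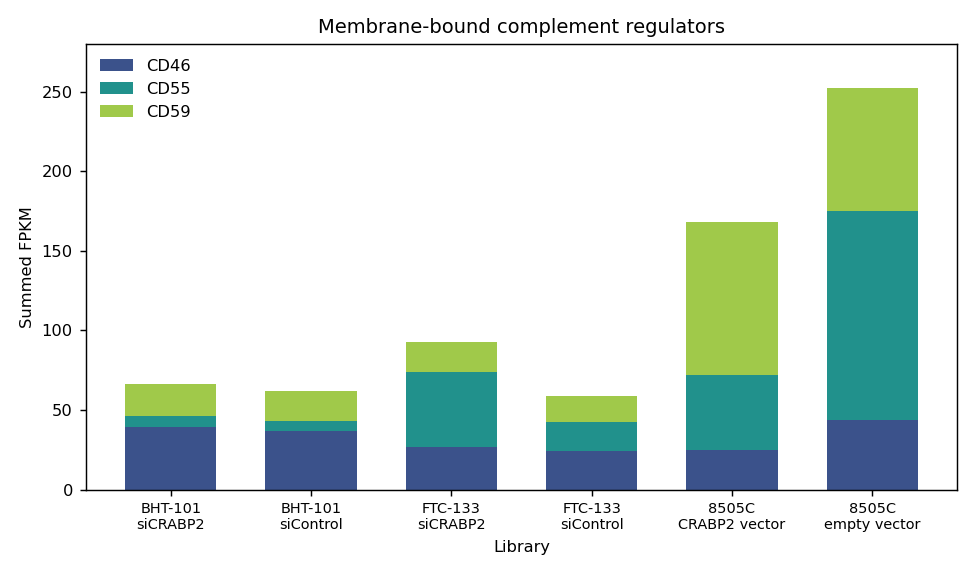
Summed FPKM of the membrane regulators CD46, CD55 and CD59 in each library, stacked by gene from 0. The sum is highest in 8505C with the empty vector (252 FPKM), where CD55 is the largest part, while CD46 is the largest part in both BHT-101 libraries.

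The order of the lines was read from the mean of their 2 libraries. C1R, C1S and CFB were highest in BHT-101, then 8505C, then FTC-133, and the libraries of neighbouring lines did not overlap. C3 and CD59 ran from 8505C through BHT-101 to FTC-133, also without overlap. CFI was highest in FTC-133, then BHT-101, then 8505C, without overlap. CD55 was highest in 8505C (mean 89.6 FPKM), but its CRABP2 vector library lay below the FTC-133 siCRABP2 library, so those lines overlapped, and both lay above BHT-101. For CD46 every neighbouring pair of lines overlapped.

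To set the genes against the transcriptome, differences were taken on the log2(FPKM + 1) scale, which understates the change of low genes. A gene was measured in a line if it reached 1 FPKM in either library, and called if its difference was 1 or more, a 2-fold change on this scale. In BHT-101, 2 of the 8 measured complement genes were called higher with siCRABP2, C1R (1.20) and C1S (1.16), and none lower. Of all 12055 measured genes, 0.589% were called higher and 0.539% lower. In FTC-133, 1 of 6 was called higher, CD55 (1.34), against 2.36% of 12832 genes, and none lower, against 2.35%. C1R (0.76) and CFI (-0.83) stayed within the limit there. In 8505C, 3 of 7 were called lower with the CRABP2 vector, CD55 (-1.46), C1R (-1.17) and C1S (-1.09), against 1.86% of 11731 genes, and none higher, against 1.85%. C3 lay just inside the limit at -0.99, and CD46 was at -0.77. Because these contrasts were known when the genes were chosen, nothing is read from the difference between these counts and the shares over all genes.

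In rank, 37 genes had a larger difference than C1R and 39 a larger one than C1S among the 12055 of BHT-101. In FTC-133, 123 of 12832 genes had a larger difference than CD55, and 587 a larger one than C1R. In 8505C, 55 of 11731 genes had a lower value than CD55, 123 than C1R, 161 than C1S and 222 than C3. The median over the measured complement genes was 0.29 in BHT-101, 0.15 in FTC-133 and -0.99 in 8505C, beside medians over all measured genes of 0.01, -0.04 and 0.02. Over all 9 genes, low ones included, it was 0.13, 0.17 and -0.77.

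**Figure D4:**
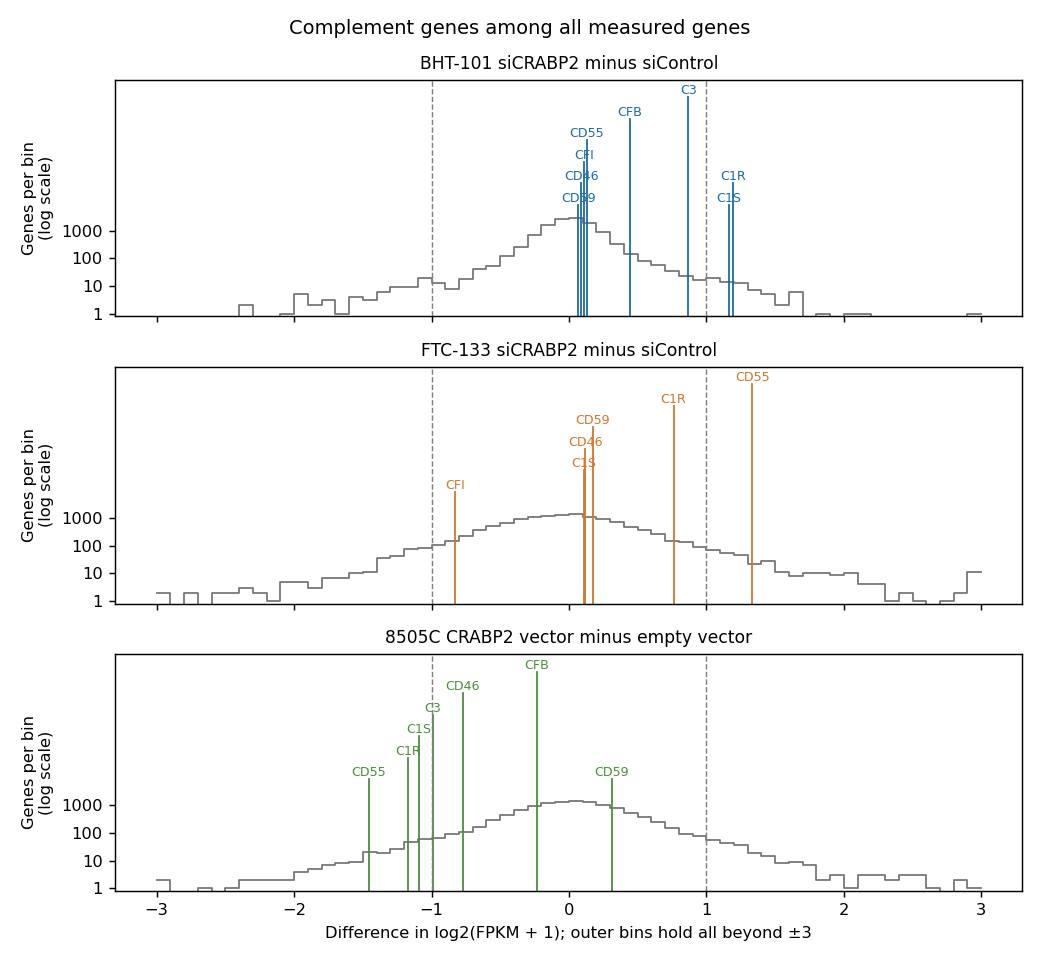
Number of measured genes per bin of the difference in log2(FPKM + 1) within each line (grey outline, log axis), with vertical lines at the measured complement genes; line height only separates the labels. Dashed lines mark differences of -1 and 1; C1R and C1S lie beyond 1 in BHT-101, CD55 beyond 1 in FTC-133, and CD55, C1R and C1S below -1 in 8505C.

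Of the 9 genes, 5 (C1R, C1S, CD46, CD55 and CD59) were measured in all 3 lines. Of these 5, the first 4 were higher with siCRABP2 in both knockdown lines and lower with the CRABP2 vector, a sign pattern held by 10.9% of the 9699 genes measured in all lines. Without a minimum level, C3 and CFB had it too, which made 6 of the 9. The share over all genes without that minimum was not computed, so nothing is read from this count. The pattern counts direction only: CD46 in BHT-101 differed by only 0.09, and C1S in FTC-133 by only 0.11, in log2(FPKM + 1).

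Among 4990 protein-coding genes with at least 5 FPKM in a library of each line, those whose 3 differences lay nearest to those of C1R by Euclidean distance were IGFBP3 (distance 0.61), SLCO4A1 (0.72) and BST2 (0.73). Nearest to C1S were IGFBP3 (0.82), DPYD (0.83) and PLAT (0.87). C1R and C1S were not candidates for each other, since they reached only 3.45 and 2.48 FPKM in FTC-133. In BHT-101, FTC-133 and 8505C, the differences were 1.20, 0.76 and -1.17 for C1R and 1.16, 0.11 and -1.09 for C1S. The distance between C1R and C1S was not computed, so the genes named are nearest among the candidates only. Nearest to CD55 were SLC7A5 (0.55), BST2 (0.55) and NFKBIZ (0.71). These distances rest on 3 differences each, so they describe a likeness over 3 lines and no more.

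Of 46 further complement genes, 11 reached 1 FPKM in any library. In BHT-101, 9 were measured, with 8 above and 1 below 0 and none called; in FTC-133, 6 were measured, with 4 above and 2 below 0 and none called; in 8505C, 7 were measured, with 3 above and 4 below 0 and 1 called lower. Their median differences were 0.23, 0.07 and -0.12. Over all measured genes, 0.589% were called higher and 0.539% lower in BHT-101, 2.36% and 2.35% in FTC-133, and 1.85% and 1.86% in 8505C. The called gene was C4BPA, a chain of the C4b-binding protein, at 1.12 FPKM with the CRABP2 vector and 5.78 FPKM with the empty vector in 8505C, and at most 0.254 FPKM in the other lines. Its difference was -1.68 on the log2(FPKM + 1) scale.

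CFD encodes factor D, the protease that cuts factor B. It was 8.28 FPKM with siCRABP2 and 6.91 FPKM with siControl in BHT-101, 1.81 FPKM with siCRABP2 and 2.87 FPKM with siControl in FTC-133, and 3.45 FPKM with the CRABP2 vector and 2.61 FPKM with the empty vector in 8505C. Its FPKM ratio was 0.63 (0.445 to 0.885) in FTC-133, where CFB was higher with siCRABP2, and its counting interval held 1 in BHT-101 (0.994 to 1.44) and in 8505C (0.96 to 1.82). CLU, which encodes the chaperone and terminal-complex inhibitor clusterin, was 26.5 FPKM with siCRABP2 and 21.9 FPKM with siControl in BHT-101, and at most 4.35 FPKM elsewhere. C1RL, the C1r-like protease gene beside C1R, differed by 0.33 in BHT-101, 0.14 in FTC-133 and -0.12 in 8505C on the log2(FPKM + 1) scale. C1QBP, whose mitochondrial product binds C1q, was between 66.8 and 117 FPKM in all 6 libraries.

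Several partners of the 9 genes were scarce. C1QA and C1QB, chains of the C1q unit that holds C1r and C1s, were listed at 0 in all 6 libraries, and C1QC was 0.0552 FPKM in FTC-133 with siCRABP2 and listed at 0 in the others. The C1s substrate C4, encoded by the near-identical C4A and C4B whose reads cannot be told apart, was at most 0.743 FPKM for either gene. C2, the other substrate, was between 0.271 and 1.89 FPKM. Of the genes for the pore-forming stage that CD59 blocks, C5 was 4.05 FPKM with siCRABP2 and 3.01 FPKM with siControl in BHT-101 and at most 0.663 FPKM elsewhere, while C9 was at most 0.327 FPKM in any library. These partner genes were named after their values were seen.

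A list of 32 cytokines, receptors and transcription factors with known or possible roles upstream of complement genes, chosen with results of these libraries known, was read in the same way against the same shares over all genes. In BHT-101, none of 23 measured was called in either direction (median 0.03), with differences in log2(FPKM + 1) of 0.65 for CEBPA, 0.28 for CEBPD, 0.25 for IL6ST, 0.24 for IFNGR1, -0.23 for RELB and 0.23 for OSMR. In FTC-133, 10 of 25 were called higher and none lower (median 0.51), beside 2.36% higher and 2.35% lower over all genes. The interleukin genes IL1B (2.72), IL1A (2.29) and IL6 (2.14) and the factors CEBPD (1.91), RELB (1.56) and NFKB2 (1.30) had the largest differences. In 8505C, 3 of 23 were called lower and none higher (median -0.26), beside 1.86% lower and 1.85% higher over all genes. These were IL1A (-1.15), IL6 (-1.14) and IL1B (-1.12), followed by the receptor genes OSMR (-0.98) and IL6ST (-0.94) and the cytokine LIF (-0.70). Among the called members, CD55 was thus higher in FTC-133 with siCRABP2 together with the interleukin genes. The called C1R, C1S and CD55 were lower in 8505C with the CRABP2 vector together with the interleukin genes. Members not called in FTC-133 had FPKM ratios of 2.12 for C1R, 3.25 for C3 and 3.03 for CFB, with C3 and CFB under 1 FPKM. CFI ran the other way there, at 0.45. In BHT-101, where C1R and C1S were higher with siCRABP2, IL1A and IL1B were at most 0.0421 FPKM in either library, and IL6 was 1.36 FPKM with siCRABP2 and 1.26 FPKM with siControl. The part of these cytokines in the complement differences was not tested.

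**Figure D5:**
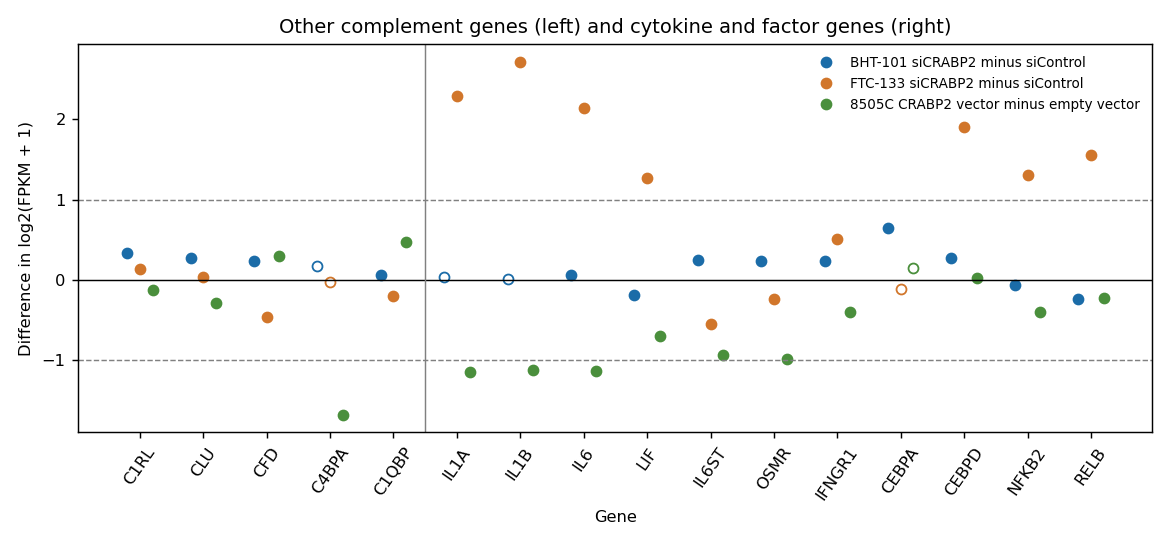
Difference in log2(FPKM + 1) within each line for 5 further complement genes (left of the grey line) and 11 cytokine, receptor and factor genes (right), 1 point per line. Open points mark lines where both libraries were under 1 FPKM, and dashed lines mark -1 and 1; C4BPA is below -1 in 8505C, and IL1A, IL1B and IL6 are beyond 2 in FTC-133.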

How the data were processed

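RNA of 6 cultures was sequenced, and the authors deposited 1 table of FPKM values, a column per library. Per the submitters' processing notes, the tools named are FastQC, Trimmomatic (0.38) and featureCounts (2.0.0), with build GRCh38; aligner, annotation release, strand setting: not given in the sources used here. Groups came from the sample titles. Symbols, positions and exon lengths came from GENCODE release 29, matched for 58611 identifiers; the authors' release may differ. Within a library, FPKM times exon length was a whole multiple of 1 step, which gave its read total; 75.3% of 33700 genes above 0 gave whole reads within 0.001. C1R, CD59 and CRABP2 did so at 5875, 10569 and 1082 bases in place of 5885, 10358 and 1100. Recovery, calls and intervals were tested on simulated data. Python 3.11.15, numpy 2.4.6, pandas 2.3.3 and scipy 1.17.1 were used.

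Differences are of log2(FPKM + 1) between the 2 libraries of a line. With 1 library per group no test was made. A pair of genes of these lists are not reported here. Members and lists were chosen with earlier results of these data known. Genes were named by a rule: all 9 members; called further complement genes and the 4 of highest mean FPKM; the 3 nearest patterns to called members; and 6 regulators per line. Outside it, the C1q chains, C4A, C4B, C2, C5, C9, CFB's promoter and cell type markers were named, the partner genes after their values were seen. Alternatives were a pseudocount of 0.1, no filter, a filter of 5 FPKM, median-of-ratios scaling, quantile normalization, read ratios with 0.5 added, removal of the GC and length trend, and leaving out a line.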

Additional observations from a re-analysis of the deposited data

Results flagged for a closer look

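A further complement gene, C1QBP, and several regulator genes ran in opposite directions with siCRABP2 in the knockdown lines, with counting intervals that exclude no difference in both; the difference between the lines was not tested, since each group is 1 library. On the log2(FPKM + 1) scale, C1QBP differed by 0.066 in BHT-101 and by -0.20 in FTC-133. With BHT-101 given before FTC-133, the first value was negative and the other positive for RELB (-0.23 and 1.56), NFKB2 (-0.068 and 1.30), LIF (-0.19 and 1.27) and RELA (-0.20 and 0.28). The reverse held for IL6ST (0.25 and -0.55), OSMR (0.23 and -0.23) and RARB (0.21 and -0.19). None of the 9 member genes met this condition. CFI had opposite signs, but its BHT-101 interval held no difference. Whole reads were not recovered for RELB, NFKB2, LIF, RELA and IL6ST, so their intervals rest on rounded values and are approximate. On the log2 scale the BHT-101 interval ended at -0.0052 for NFKB2 and at -0.028 for LIF, close to no difference.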

How the results depend on the processing

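Of 105 values of single member genes under the other scalings, pseudocount, read ratio and trend removal, all 105 kept their sign. Part of this was fixed in advance: another pseudocount cannot turn a sign, and the read ratio is nearly the FPKM ratio again. Only the other scalings and the trend removal could readily turn it. Values of members under 1 FPKM in both libraries of a line were not among the 105. With the GC and length trend removed, the BHT-101 differences were 0.03 for CD46, 0.03 for CFI and 0.07 for CD55, against 0.09, 0.11 and 0.13 as reported, so the sign of CD46 there rests on a small value. With a pseudocount of 0.1 and with read ratios, C3 was also called higher in BHT-101 (3 members), C1R also called higher (2 members) and CFI called lower (1 member) in FTC-133; these alternatives shrink low genes less by construction. In 8505C, C3 was also called lower (4 members) under both, under median-of-ratios scaling and under quantile normalization. The sign pattern over the 3 lines held for 2 members with a filter of 5 FPKM and 6 with no filter. Those filters change how many are measured. The signs in the remaining lines held for 4 of 5 members without BHT-101, 6 of 7 without FTC-133 and 5 of 6 without 8505C. Fewer signs are asked for there. Shares over all genes were not computed under any of these alternatives, so nothing is read from the counts. The median over measured members in BHT-101 was 0.50 with a filter of 5 FPKM and 0.40 with read ratios. In 8505C it was -0.77 with no filter, -1.06 under quantile normalization and -0.86 with the GC and length trend removed. In the last 2, the median was the value of a single gene, C1S under quantile normalization and C3 with the trend removed. As reported it was that of C3, at -0.99. Why the values of these genes moved was not tested. Across genes, the BHT-101 difference had a Pearson correlation of -0.23 with GC content; genes are not independent replicates. The labels give no replicate numbers, libraries were set side by side within each line, and a fit with line as a block was not run. Depth limits SERPING1, with 12 reads or fewer per library, and CFI in 8505C.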
